A study of Mus musculus with 12 samples.

Results

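Cholesterol and fatty acid synthesis genes were followed in c-Kit+ leukemic splenocytes of mice with acute myeloid leukemia (AML), cultured for 6 hours with CCS1477, an inhibitor of the bromodomain of the acetyltransferases p300 and CBP, or with its solvent DMSO. The genes were chosen as a list of 37 names, and 36 of them had a row among the 15651 genes of the expression table. Hmgcs1, the synthase that opens the mevalonate pathway, was not analysed here. D/F AML arose in Dnmt3a fl/fl, Flt3 ITD/ITD, Mx1-Cre mice and T/F AML in Tet2 fl/fl, Flt3 ITD/ITD, Mx1-Cre mice, with 3 moribund mice of each genotype. All mice carried the Flt3 internal tandem duplication on both alleles. Mx1-Cre, which is driven by an interferon-responsive promoter, was not induced, so that 1 or both floxed alleles could have been lost by leaky expression. Cells of each mouse were divided between DMSO and CCS1477, which gave 12 libraries in 4 groups of 3. D/F cells received 4 µM CCS1477 and T/F cells received 2 µM, and therefore genotype and dose cannot be told apart in any comparison of the responses or of treated levels. All cultures held serum and the cytokines SCF, IL6 and IL3.

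Cells make cholesterol from acetyl-CoA through mevalonate, isoprenoid diphosphates, squalene and a series of sterols, and they make palmitate from acetyl-CoA through malonyl-CoA. Most of these enzymes are transcribed under the control of the SREBP factors, which are held in the endoplasmic reticulum with SCAP by INSIG proteins when sterols are plentiful and are released to the nucleus when sterols fall. The liver X receptors (LXR) act in the opposite state, as they are activated by oxysterols and turn on genes of cholesterol efflux. SREBP target genes include the synthesis enzymes and INSIG1 itself. p300 and CBP are coactivators of many transcription factors.

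Expression was given as TPM, a relative transcript abundance scaled for length, which keeps no record of read depth. Summed TPM ranged from 914204 to 931697 among the 12 libraries. Differences are given on the log2(TPM + 1) scale with the standard error (SE) of the limma fit, and a gene was called changed at an adjusted p under 0.05 (Benjamini-Hochberg over all genes tested). Deleted exons are not resolved in a gene-level table, and Dnmt3a remained at 29.3 to 55.7 TPM in D/F DMSO libraries, and Tet2 at 29.9 to 35.8 TPM in T/F DMSO libraries. Summed TPM of 9 c-Kit+ progenitor markers ranged from 4168 to 10496 in D/F DMSO, 935 to 4400 in D/F CCS1477, 4514 to 6742 in T/F DMSO and 1805 to 3140 in T/F CCS1477. Mature neutrophil markers had sums between 1632 and 9468 TPM over the 9 genes, most of it from S100a8, S100a9 and Ngp. Ly6g of the same list stood at only 1.68 to 3.12 TPM in D/F DMSO and 0 to 0.47 TPM in D/F CCS1477. In T/F DMSO it stood at 4.77 to 30.3 TPM. The cells of D/F mouse 2 stood apart, with the lowest progenitor and neutrophil sums of the D/F mice in both treatments. Most of the progenitor sum came from the granule genes Mpo, Elane, Prtn3 and Ctsg, and Kit (149 TPM against 50.5 and 60.9), Cd34 (447 against 110.3 and 138), Flt3 and Myb were instead highest in the DMSO library of mouse 2, as were the summed megakaryocyte markers (212 TPM against 34.9 and 50.3). Log2 values correlated at 0.945 to 0.982 between D/F replicates and at 0.978 to 0.991 between T/F replicates. The part of these shifts in the results below was not tested, and in bulk RNA fewer cells of a type cannot be told apart from less RNA per cell. Each value from D/F cells that turns on mouse 2 is given with and without it.

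Mvk and Elovl6 were the members that changed in both genotypes when the mouse was not blocked in the fit. With the mouse as a block, Fdft1, Insig2, Acss2, Nr1h2 and Mylip also rose in both genotypes, and Elovl5 also fell. That fit called 39.3% of all genes in D/F cells and 54.1% in T/F cells. Mvk encodes mevalonate kinase (ENSMUSG00000041939, chromosome 5, 114444269 to 114460591, plus strand, mm10). It stood at 18.3, 23.2 and 16.97 TPM in the DMSO libraries of D/F mice 1, 2 and 3, and at 38.8, 39.1 and 33.7 TPM with CCS1477. In T/F mice the values were 19.8, 18.4 and 18.4 TPM in DMSO and 27.4, 29.8 and 26.3 TPM with CCS1477. Every treated library lay above every DMSO library, in both genotypes. The log2 difference was 0.91 ± 0.17 (SE) in D/F cells and 0.54 ± 0.07 (SE) in T/F cells, with limma adjusted p values of 0.026 and 0.0027.

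Elovl6, the elongase that carries palmitate to stearate (ENSMUSG00000041220, chromosome 3, 129532355 to 129638495, plus strand, mm10), moved the other way. D/F libraries held 25.2, 25.9 and 24.1 TPM in DMSO and 11.8, 8.09 and 8.74 TPM with CCS1477. T/F libraries held 21.1, 22.3 and 21.1 TPM in DMSO and 10.7, 12.1 and 9.17 TPM with CCS1477. The treated groups were thus well below the DMSO groups, without overlap. The log2 difference was -1.32 ± 0.18 (SE) in D/F cells and -0.96 ± 0.10 (SE) in T/F cells, with limma adjusted p values of 0.011 and 0.0014. Without the mouse block, Elovl6 was the only member to pass the test with a change above 2-fold within a genotype. It did so in D/F cells, where 4.61% of all genes passed and fell by more than 2-fold. With the block, Acss2 also passed in D/F cells, at 2.19-fold higher (limma adjusted p = 0.0052), beside 4.23% of all genes. Without the block and with D/F mouse 1 or mouse 3 left out, no gene of the whole table passed in D/F cells, Mvk and Elovl6 included.

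Promoter DNA of 4 members is printed because they show the contrasts that the results turn on: Mvk and Elovl6 moved in opposite directions in both genotypes, and Insig1 and Hsd17b7, chosen after their values were seen, had the largest negative differences between the genotypes' responses. The bases lie before the transcription start of RefSeq and before the annotated gene start, read 5′ to 3′ on the gene's strand, and capitals mark CCAAT on either strand, the box bound by the factor NF-Y, and CACGTG, an E-box.
Mvk, chr5:114444019-114444268, plus strand, GRCm38.p6: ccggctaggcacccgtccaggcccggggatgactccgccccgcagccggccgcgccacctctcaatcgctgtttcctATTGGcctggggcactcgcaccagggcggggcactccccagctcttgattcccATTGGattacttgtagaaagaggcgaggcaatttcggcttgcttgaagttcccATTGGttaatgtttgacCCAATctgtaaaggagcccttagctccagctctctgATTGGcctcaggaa
Elovl6, chr3:129532136-129532354, plus strand, GRCm38.p6: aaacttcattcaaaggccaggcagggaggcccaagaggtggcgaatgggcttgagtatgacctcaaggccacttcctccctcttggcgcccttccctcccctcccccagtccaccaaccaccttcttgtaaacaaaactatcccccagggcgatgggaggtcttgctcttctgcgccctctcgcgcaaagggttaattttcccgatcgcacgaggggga
Insig1, chr5:28071162-28071362, plus strand, GRCm38.p6: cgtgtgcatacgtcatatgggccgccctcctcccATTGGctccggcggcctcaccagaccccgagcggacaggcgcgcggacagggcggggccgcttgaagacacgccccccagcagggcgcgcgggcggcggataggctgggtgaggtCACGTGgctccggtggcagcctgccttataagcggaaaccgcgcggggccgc
Hsd17b7, chr1:169969242-169969455, minus strand, GRCm38.p6: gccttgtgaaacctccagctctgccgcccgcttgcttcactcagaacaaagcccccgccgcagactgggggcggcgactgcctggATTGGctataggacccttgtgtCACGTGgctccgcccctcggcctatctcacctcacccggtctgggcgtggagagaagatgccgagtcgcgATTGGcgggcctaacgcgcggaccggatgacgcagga
The 250 bases printed for Mvk held 5 matches to CCAAT or its complement ATTGG, those of Insig1 held 1 and those of Hsd17b7 held 2, and the stretch of Elovl6 held 0. Insig1 and Hsd17b7 also held 1 CACGTG each.

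RefSeq windows of 300 bases (250 before and 50 after the start) were given for 28 of the 36 members, some with several windows. Fdps, Fdft1, Sqle, Stard4, Fads1, Scd1, Scd2 and Abcg1 had no window. CCAAT, on either strand, was in at least 1 window of 22 of the 28 genes. The share over all 27025 genes with a window was 41.1%, and it was 43.1% over the 10622 of them with a row in the expression table. All 4 mevalonate genes and all 9 sterol synthesis genes with a window held it. It was found in 4 of 5 genes of SREBP control and sterol transport, in 4 of 7 fatty acid genes and in 1 of 3 LXR genes. CACGTG was found in 7 of the 28 genes, against 8.09% of all genes and 11.3% of those in the table. The sterol response element in its classical form was in 0 of the 28 (0.0999% of all genes), its looser form TCACNCCAC in 0 (1.44%) and the spaced direct repeat bound by LXR in 0 (0.0148%), all searched on both strands. With shares this low over all genes, 0 of 28 cannot show whether the members lack the sterol response element or the LXR repeat. These are matches of letters within a short window, and none of them was tested for binding.

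Counted over the 36 members, the response in D/F cells was broad in direction but passed the test in few genes. In D/F cells 2 of 36 members changed, 1 higher and 1 lower, where 11.6% of all genes tested did (5.14% higher and 6.51% lower). The fitted difference was above 0 in 28 of 36 members, against 54.8% of all genes, and expression was higher with CCS1477 in all 3 mice for 23 members, against 38.5%. The median log2 difference of the members was 0.23, beside 0.06 over all genes. Since DMSO and CCS1477 cells came from the same mouse, the fit with the mouse as a block is given beside this count: it called 11 members, 9 higher and 2 lower, where 39.3% of all genes were called (21.4% higher and 18% lower). The share called lay below the background in both fits, although with the block the share called higher was above it. Of all genes called in D/F cells, 44.1% were higher with CCS1477, and 54.5% after quantile normalization, which called 4 members (3 higher and 1 lower).

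In T/F cells 16 of 36 members changed, 7 higher and 9 lower, where 43.4% of all genes did (25.8% higher and 17.6% lower). The share of members called was near that of all genes. The fitted difference was above 0 in 17 of 36 members, against 57.2% of all genes, and the median was -0.04, beside 0.07 over all genes. The members that changed upward came from every role, whereas 5 of the 9 that fell belonged to fatty acid synthesis. With 3 mice a group the smallest two-sided p of an exact permutation test is 0.1, so the calls rest on the limma fit. With the mouse blocked, Srebf1, Fads1 and Abcg1 were also called higher in T/F cells and Fdps lower, and no call ended. That fit called 54.1% of all genes (31.2% higher and 22.9% lower).

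**Figure D1:**
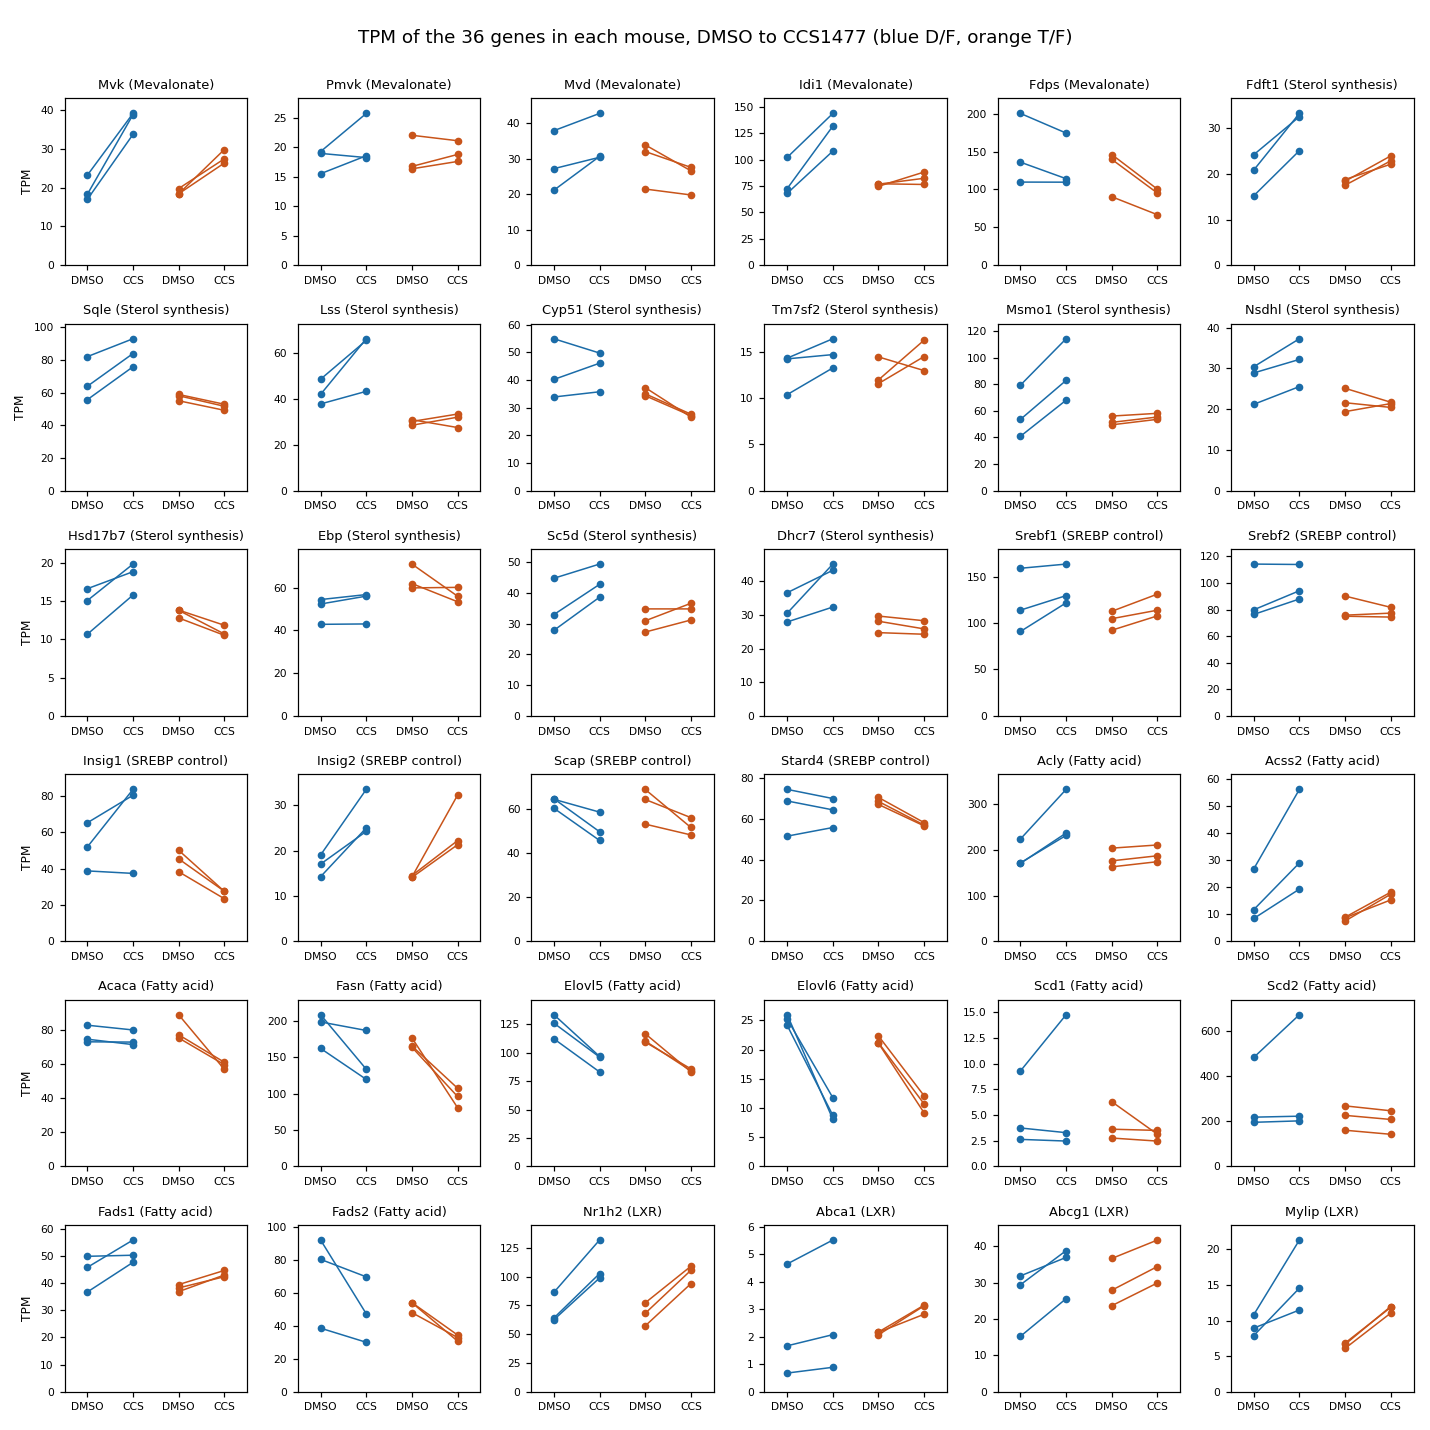
TPM of each of the 36 genes (y axes, from 0, a scale of its own for each gene) in DMSO and in CCS1477, with a line joining the cells of each mouse, D/F in blue and T/F in orange, 3 mice each. Mvk rises and Elovl6 falls in all 6 mice. Of the sterol synthesis panels, those of Sqle, Hsd17b7 and Dhcr7 show rising blue lines beside falling orange lines, while Fdft1 and Msmo1 rise in all 6 mice.

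Among the other mevalonate genes, Idi1 separated the treatments in D/F cells and not in T/F cells. Idi1 encodes the isomerase that interconverts the isoprenoid building blocks. D/F libraries held 72.6, 102 and 68.1 TPM in DMSO and 132, 144 and 108 TPM with CCS1477, and T/F libraries held 74.7, 76.8 and 77.2 TPM in DMSO and 88.3, 82.3 and 76.5 TPM with CCS1477. The D/F groups did not overlap, but the log2 difference of 0.67 ± 0.21 (SE) did not pass the limma fit (adjusted p = 0.092) unless the mouse was blocked (adjusted p = 0.016) or mouse 2 was left out (adjusted p = 0.034). In T/F cells it was 0.11 ± 0.07 (SE), with limma adjusted p = 0.28. Over both genotypes Idi1 changed, by 0.39 ± 0.14 (SE), limma adjusted p = 0.037.

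The remaining mevalonate genes did not pass in either genotype. Mvd, the decarboxylase that forms isopentenyl diphosphate, stood at 37.95, 21.2 and 27.2 TPM in D/F DMSO and 42.8, 30.7 and 30.4 TPM in D/F CCS1477, and at 32.1, 33.9 and 21.5 TPM in T/F DMSO and 27.6, 26.6 and 19.8 TPM in T/F CCS1477. It was higher with CCS1477 in each D/F mouse and lower in each T/F mouse, although the groups overlapped. Fdps, farnesyl diphosphate synthase, ranged from 109.7 to 200.2 TPM in D/F DMSO and from 90.3 to 146 TPM in T/F DMSO. Its log2 difference was -0.51 ± 0.24 (SE) in T/F cells (limma adjusted p = 0.14), and with the mouse blocked it passed there (adjusted p = 0.0046). Fdps shares 26.7% of its exon bases with a second annotated gene on the same strand, so its level is uncertain. Pmvk, which adds the next phosphate after Mvk, differed by 0.20 ± 0.19 (SE) in D/F and 0.07 ± 0.13 (SE) in T/F cells.

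Sterol synthesis genes leaned upward in D/F cells, although none of the 11 passed there. All 11 had a fitted difference above 0 in D/F cells, from 0.04 for Cyp51 to 0.62 for Msmo1, and 10 of them were higher in all 3 mice. With the mouse blocked, Fdft1 and Msmo1 passed. In T/F cells 1 of the 11 rose and 2 fell. Fdft1, squalene synthase, was the member of this group that rose. It stood at 20.8, 24.2 and 15.2 TPM in D/F DMSO, 33.2, 32.5 and 25.1 TPM in D/F CCS1477, 18.8, 18.4 and 17.5 TPM in T/F DMSO and 22.1, 23.9 and 22.8 TPM in T/F CCS1477. Neither genotype's groups overlapped. Fdft1 differed by 0.32 ± 0.06 (SE) in T/F cells (limma adjusted p = 0.01) and 0.58 ± 0.22 (SE) in D/F cells (limma adjusted p = 0.13, blocked 0.018). Fdft1 shares 18.3% of its exon bases with Ctsb on the opposite strand, and leaving out any 1 T/F mouse ended the T/F call, with adjusted p from 0.060 to 0.094, as did median rescaling.

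Cyp51, the lanosterol demethylase, and Hsd17b7, a ketosteroid reductase of the demethylation steps, fell in T/F cells. Cyp51 stood at 34.3, 35 and 37.3 TPM in T/F DMSO and 27.1, 27.6 and 26.6 TPM in T/F CCS1477, and at 40.2, 54.9 and 33.8 TPM in D/F DMSO and 46.1, 49.7 and 35.7 TPM in D/F CCS1477. The T/F groups were separate and narrow, and the D/F groups overlapped. Cyp51 differed by -0.38 ± 0.06 (SE) in T/F cells (limma adjusted p = 0.005) and 0.04 ± 0.23 (SE) in D/F cells (limma adjusted p = 0.92).

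Hsd17b7 (ENSMUSG00000026675, chromosome 1, 169949535 to 169969241, minus strand, mm10) stood at 13.8, 12.8 and 13.8 TPM in T/F DMSO and 10.7, 10.5 and 11.8 TPM in T/F CCS1477. In D/F cells it stood at 15.1, 16.6 and 10.7 TPM in DMSO and 19.8, 18.8 and 15.8 TPM with CCS1477. Each T/F mouse was lower with the drug and each D/F mouse higher. The log2 difference was -0.27 ± 0.07 (SE) in T/F cells (limma adjusted p = 0.028) and 0.36 ± 0.21 (SE) in D/F cells (limma adjusted p = 0.29). Leaving out any 1 T/F mouse ended the call in T/F cells, with adjusted p from 0.056 to 0.19, and the call of Cyp51 ended without mouse 1 (adjusted p = 0.052) or mouse 2 (adjusted p = 0.058).

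Sqle, squalene epoxidase and a rate-limiting step of the sterol branch, showed the same split without passing the test. It stood at 63.8, 81.96 and 55.6 TPM in D/F DMSO, 83.9, 92.9 and 75.7 TPM in D/F CCS1477, 54.96, 58.04 and 58.8 TPM in T/F DMSO and 49.1, 51.6 and 52.8 TPM in T/F CCS1477. All T/F libraries with CCS1477 were below those with DMSO, while the D/F groups overlapped. D/F cells gave a limma adjusted p of 0.29, and T/F cells gave 0.091. Dhcr7, the reductase of the last step to cholesterol, stood at 30.5, 36.6 and 27.9 TPM in D/F DMSO and 45.1, 43.3 and 32.4 TPM in D/F CCS1477. In T/F cells its values were 29.7, 28.1 and 24.7 TPM in DMSO and 28.3, 25.9 and 24.3 TPM with CCS1477. Each D/F mouse was higher and each T/F mouse lower with the drug, with log2 differences of 0.33 ± 0.19 (SE) and -0.07 ± 0.10 (SE).

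The other sterol enzymes did not pass in T/F cells. Msmo1, the methylsterol monooxygenase, stood at 53.6, 79.4 and 40.9 TPM in D/F DMSO and 82.95, 114 and 68.1 TPM in D/F CCS1477. It was higher in every D/F mouse, yet the groups overlapped, with mouse 2 the highest in both treatments, and the call depended on the block (limma adjusted p = 0.22, blocked 0.013). Lss, lanosterol synthase, had a log2 difference of 0.42 ± 0.22 (SE) in D/F and 0.05 ± 0.09 (SE) in T/F cells. Nsdhl, Tm7sf2, Ebp and Sc5d, which act in demethylation, reduction, isomerization and desaturation of the sterol ring, differed by 0.05 to 0.32 in D/F cells and by -0.18 to 0.19 in T/F cells, and none of them passed.

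**Figure D2:**
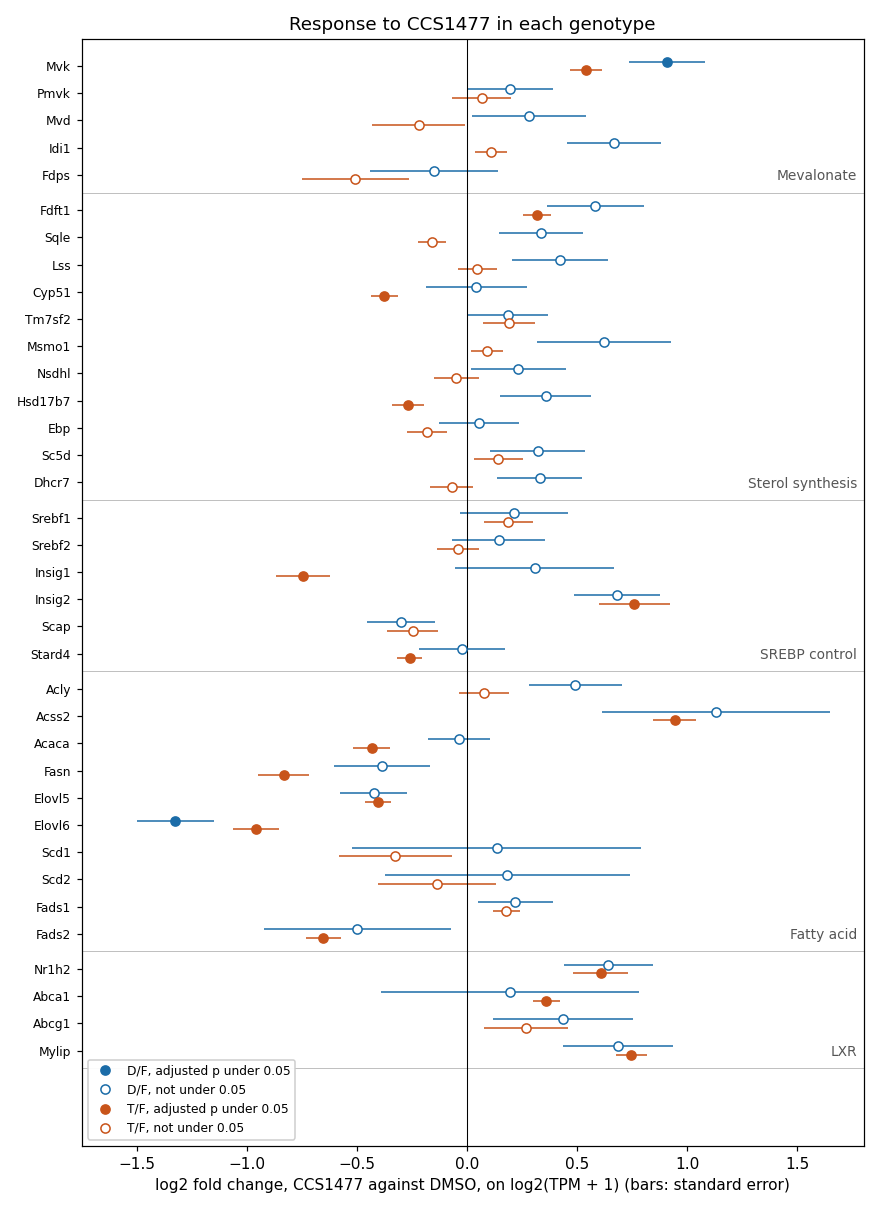
Log2 fold change with CCS1477 on the log2(TPM + 1) scale (x axis) for each gene (rows, grouped by role), D/F in blue and T/F in orange, with bars for the SE and filled points for a limma adjusted p under 0.05. Blue points lie to the right of orange points for 29 of the 36 genes, and Mvk and Elovl6 are the genes filled in both colors. The points are from fits without the mouse block.

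The genes that control SREBP differed in pattern, with the INSIG pair moving apart in T/F cells. Insig1 (ENSMUSG00000045294, chromosome 5, 28071363 to 28078662, plus strand, mm10) stood at 45.4, 50.1 and 38.3 TPM in T/F DMSO and 27.5, 27.5 and 23.4 TPM in T/F CCS1477. In D/F cells it stood at 65.3, 51.9 and 38.7 TPM in DMSO and 80.4, 83.7 and 37.4 TPM with CCS1477. All T/F libraries fell, with a log2 difference of -0.74 ± 0.12 (SE) (limma adjusted p = 0.0051), to 0.60 of the DMSO level. D/F mice 1 and 2 were higher and mouse 3 was close to its DMSO value, with a log2 difference of 0.31 ± 0.36 (SE) and limma adjusted p = 0.61. The T/F call ended without T/F mouse 1 (adjusted p = 0.052).

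Insig2, which like Insig1 retains SCAP but is not known as an SREBP target, was higher in both genotypes. It stood at 14.2, 19.02 and 17.01 TPM in D/F DMSO, 24.98, 33.5 and 24.2 TPM in D/F CCS1477, 14.5, 14.1 and 14.2 TPM in T/F DMSO and 22.2, 21.3 and 32.2 TPM in T/F CCS1477. Neither genotype's groups overlapped. Insig2 rose in T/F cells by 0.76 ± 0.16 (SE) with limma adjusted p = 0.012, and in D/F cells the difference was 0.68 ± 0.19 (SE) with limma adjusted p = 0.07 (blocked 0.014, and 0.040 without mouse 2). The T/F call was lost without mouse 1 (adjusted p = 0.065) or mouse 2 (adjusted p = 0.064).

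The SREBP genes themselves did not pass. Srebf1 and Srebf2, which encode SREBP-1 and SREBP-2, differed by 0.21 ± 0.25 (SE) and 0.14 ± 0.21 (SE) in D/F cells and by 0.19 ± 0.11 (SE) and -0.04 ± 0.09 (SE) in T/F cells. With the mouse blocked, Srebf1 passed in T/F cells (limma adjusted p = 0.046). Scap, the SREBP escort, was lower in all 6 mice and fell over both genotypes, with a log2 difference of -0.27 ± 0.09 (SE) with limma adjusted p = 0.024. Stard4, which carries cholesterol between membranes, stood at 67.1, 70.6 and 68.6 TPM in T/F DMSO and 56.6, 58.2 and 57.03 TPM in T/F CCS1477. It fell by 0.26 ± 0.06 (SE) in T/F cells (limma adjusted p = 0.014), without overlap, and differed by -0.02 ± 0.19 (SE) in D/F cells. Leaving out any 1 T/F mouse ended the Stard4 call, with adjusted p from 0.069 to 0.11.

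Of the 10 fatty acid genes, Acss2 rose and Acaca, Fasn, Elovl5, Elovl6 and Fads2 fell in T/F cells, and Elovl6 alone passed in D/F cells. Acss2, which makes acetyl-CoA from acetate, stood at 11.6, 26.7 and 8.37 TPM in D/F DMSO and 28.9, 56.02 and 19.2 TPM in D/F CCS1477. In T/F cells it stood at 7.44, 8.63 and 8.83 TPM in DMSO and 17.3, 15.2 and 18.1 TPM with CCS1477. Each mouse was higher with the drug, by log2 values of 1.24, 1.04 and 1.11 for the D/F mice and 1.118, 0.75 and 0.96 for the T/F mice. Acss2 rose in T/F cells by 0.94 ± 0.10 (SE), or 1.92-fold, with limma adjusted p = 0.0012. The D/F groups overlapped, with mouse 2 the highest in both treatments, and limma adjusted p was 0.2 without the block and 0.0052 with it, and 0.045 without mouse 2. Acss2 was higher by 2.05-fold over both genotypes (limma adjusted p = 0.01).

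Acly, which makes acetyl-CoA from citrate, stood at 224, 172 and 171 TPM in D/F DMSO and 333, 232 and 237 TPM in D/F CCS1477, and at 176, 204 and 163 TPM in T/F DMSO and 187, 211 and 174 TPM in T/F CCS1477. The D/F groups were separate and the T/F groups were not. The log2 difference was 0.49 ± 0.21 (SE) in D/F cells (limma adjusted p = 0.18, blocked 0.019) and 0.08 ± 0.12 (SE) in T/F cells (limma adjusted p = 0.62).

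Fasn, fatty acid synthase, stood at 199, 162 and 209 TPM in D/F DMSO and 187, 119.8 and 134 TPM in D/F CCS1477, and at 164, 166 and 177 TPM in T/F DMSO and 96.3, 108 and 80.9 TPM in T/F CCS1477. It was lower with the drug in all 6 mice, with separate groups in T/F cells only. Fasn fell by 0.83 ± 0.11 (SE) in T/F cells (limma adjusted p = 0.0028), and differed by -0.39 ± 0.22 (SE) in D/F cells (limma adjusted p = 0.28). Acaca, the carboxylase that makes malonyl-CoA, stood at 88.6, 75.1 and 76.9 TPM in T/F DMSO and 56.8, 59.5 and 60.9 TPM in T/F CCS1477. It fell in T/F cells, with a log2 difference of -0.43 ± 0.08 (SE), with limma adjusted p = 0.0093, a call that ended without mouse 1 (adjusted p = 0.066) or mouse 2 (adjusted p = 0.063). In D/F cells Acaca ranged from 72.8 to 82.5 TPM in DMSO and from 71.2 to 79.7 TPM with CCS1477, a difference of -0.04 ± 0.14 (SE).

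Elovl5, which elongates polyunsaturated fatty acids, was lower in both genotypes. It stood at 133, 112 and 126 TPM in D/F DMSO, 96.8, 83.1 and 96.2 TPM in D/F CCS1477, 117, 110.3 and 109 TPM in T/F DMSO and 83.3, 84.2 and 85.9 TPM in T/F CCS1477. Treated libraries were all below the DMSO libraries of their genotype. Elovl5 differed by -0.40 ± 0.06 (SE) in T/F cells (limma adjusted p = 0.0035) and -0.42 ± 0.15 (SE) in D/F cells (limma adjusted p = 0.12, blocked 0.024). The T/F call was lost without mouse 1 (adjusted p = 0.054) or mouse 2 (adjusted p = 0.052), and over both genotypes limma adjusted p was 0.00052.

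The desaturases did not move together. Fads2, which takes the first desaturation step of polyunsaturated fatty acids, stood at 54.01, 47.9 and 53.9 TPM in T/F DMSO and 34.4, 32.9 and 30.7 TPM in T/F CCS1477, and fell there, with a log2 difference of -0.65 ± 0.08 (SE) with limma adjusted p = 0.002. Its D/F values were scattered, from 38.5 to 91.9 TPM in DMSO and from 29.98 to 69.6 TPM with CCS1477. Fads1, the next desaturase of that path, did not pass in T/F cells (0.18 ± 0.06 SE, limma adjusted p = 0.058, blocked 0.043). Scd1 and Scd2 are close paralogs that desaturate stearate and palmitate, and reads could have been split between them. Scd2 was the most abundant member, at 483, 196 and 218 TPM in D/F DMSO and 672, 202 and 223 TPM in D/F CCS1477, with mouse 1 far above the others. Scd1 was at 2.63 to 9.28 TPM in D/F DMSO and 2.77 to 6.30 TPM in T/F DMSO, and neither gene passed in either genotype.

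Each of the 4 members of the LXR group was higher with CCS1477 in all 6 mice. Of all genes, 38.5% were higher in all 3 D/F mice and 43.9% in all 3 T/F mice, and the share higher in all 6 mice was not counted. Apoe, an LXR target outside the list that is described last, was lower in both genotypes. Nr1h2, which encodes LXR beta, stood at 64.04, 86.3 and 62.5 TPM in D/F DMSO, 103, 132 and 98.7 TPM in D/F CCS1477, 57.2, 68.1 and 77.1 TPM in T/F DMSO and 93.8, 105 and 109 TPM in T/F CCS1477. Every treated library exceeded the DMSO libraries of its genotype. Nr1h2 rose in T/F cells by 0.61 ± 0.13 (SE) with limma adjusted p = 0.012, a call lost without mouse 2 (adjusted p = 0.11). In D/F cells the difference was 0.64 ± 0.20 (SE) with limma adjusted p = 0.088 (blocked 0.01, and 0.025 without mouse 2).

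Mylip, also called IDOL, a ubiquitin ligase that limits lipoprotein uptake, stood at 7.89, 10.8 and 8.94 TPM in D/F DMSO and 14.6, 21.3 and 11.5 TPM in D/F CCS1477. T/F values were 6.65, 6.09 and 6.84 TPM in DMSO and 11.96, 11.04 and 11.8 TPM with CCS1477. Treated and DMSO libraries were separate in both genotypes. Mylip rose in T/F cells by 0.75 ± 0.07 (SE), or 1.68-fold, with limma adjusted p = 0.00095, and in D/F cells limma adjusted p was 0.12 (blocked 0.03).

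Abca1, a cholesterol efflux pump, was the least abundant member, at 1.67, 4.64 and 0.68 TPM in D/F DMSO and 2.07, 2.17 and 2.16 TPM in T/F DMSO. With CCS1477 it stood at 2.07, 5.51 and 0.89 TPM in D/F cells, and at 3.12, 3.14 and 2.81 TPM in T/F cells. It rose in T/F cells by 0.36 ± 0.06 (SE) with limma adjusted p = 0.0063, and this call ended without mouse 1 (adjusted p = 0.081) or mouse 2 (adjusted p = 0.074). Abcg1, the partner pump, did not pass in D/F cells (limma adjusted p = 0.4) or in T/F cells (limma adjusted p = 0.31, blocked 0.022). Both pumps are abundant in macrophages. The 5 macrophage markers in the table, of 9 listed, summed to 23.0 to 47.7 TPM in T/F DMSO and 6.46 to 13.8 TPM in T/F CCS1477. In D/F cells they summed to 21.5 to 23.5 TPM in DMSO and 2.79 to 4.55 TPM with CCS1477. Whether macrophage content bears on the levels of Abca1 and Abcg1 was not tested.

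Over both genotypes together, with 6 libraries a treatment, 11 members changed, 7 higher (Mvk, Idi1, Fdft1, Insig2, Acss2, Nr1h2 and Mylip) and 4 lower (Scap, Fasn, Elovl5 and Elovl6). The share among all genes was 45.3% (25.8% higher and 19.6% lower), so this count was not above the background. With the mouse blocked the count was 20, 14 higher and 6 lower, where 60.3% of all genes were called (34.5% higher and 25.9% lower). The block added Msmo1, Sc5d, Srebf1, Fads1, Acly, Abca1 and Abcg1 as higher and Fdps and Fads2 as lower, with limma adjusted p values from 0.0022 to 0.026. Without the block, Acss2 rose and Elovl6 fell by more than 2-fold, beside 3.1% and 5.7% of all genes.

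A direct comparison of the responses addressed whether the genotypes differed, at their own doses. Neither with nor without the mouse block did any gene of the table pass the test of the difference (limma, 0 of 15583 genes, lowest adjusted p = 0.77 without the block). At an unadjusted p under 0.05, 5 members differed (Idi1, Sqle, Hsd17b7, Insig1 and Acaca), all lower in T/F, where 4.23% of all genes differed and 1.73% were lower in T/F. At the same unadjusted threshold the blocked fit gave 14 members, all lower in T/F, against 14.7% of all genes (6.55% lower). The fitted difference was below 0 in 29 of 36 members, against 46.8% of all genes, with a median of -0.25 beside 0.02. Among 33 other genes of these pathways, described last, it was below 0 in 17, with a median of -0.03. With each of the 6 mice left out in turn, it was below 0 in 29 or 30 members and its median lay between -0.28 and -0.22. Without D/F mouse 2 it was -0.28, with 30 members below 0.

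The difference was below 0 in 5 of 5 mevalonate genes (median -0.37), 10 of 11 sterol synthesis genes (median -0.37), 8 of 10 fatty acid genes (median -0.25), 4 of 6 SREBP control genes (median -0.11) and 2 of 4 LXR genes (median 0.01). Insig1 had the largest, at -1.05 ± 0.41 (SE) with an unadjusted limma p of 0.028, followed by Hsd17b7 at -0.62 ± 0.22 (SE). Higher in all 3 D/F mice and lower in all 3 T/F mice were 5 members, Mvd, Sqle, Hsd17b7, Dhcr7 and Scd2, against 0.712% of all genes. The opposite pattern was found in 0 members and in 1.35% of all genes.

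The levels of the genotypes were also set side by side within each treatment. In DMSO, no member passed (limma, 0 of 36, beside 0.0328% of all genes), and 3 did at an unadjusted p under 0.05 (6.15% of all genes). T/F libraries lay below D/F libraries without overlap for Lss, Elovl6 and Mylip, against 7.42% of all genes, and above them for Ebp, against 5.17%. Leaving out a library can only keep or raise such a count. Without the library of D/F mouse 3, 14 members lay below, where 17.6% of all genes did.

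With CCS1477, T/F libraries lay below D/F libraries without overlap for 20 of 36 members, where 10.7% of all genes did, and above them for 0 members, where 9.59% did. The 20 were 4 of 5 mevalonate genes (all but Pmvk), 9 of 11 sterol synthesis genes (all but Tm7sf2 and Ebp), Srebf2 and Insig1, 5 of 10 fatty acid genes (Acly, Acss2, Acaca, Fasn and Fads1) and 0 of 4 LXR genes. The count was 16 after median rescaling (12.8% of all genes) and 20 after quantile normalization (12.7%). Without D/F mouse 2 it was 21, where 15% of all genes lay below. Insig1 differed most, at 80.4, 83.7 and 37.4 TPM in D/F cells against 27.5, 27.5 and 23.4 TPM in T/F cells, a log2 difference of -1.25 ± 0.32 (SE). Lss differed by -0.87 ± 0.19 (SE), from 66.3, 65.6 and 43.4 TPM in D/F to 33.4, 32.1 and 27.5 TPM in T/F cells. Sqle differed by -0.70 ± 0.12 (SE) and had the lowest limma adjusted p of the members, 0.13. No member passed the limma test between the genotypes in CCS1477 (0 of 36, beside 0.0329% of all genes).

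**Figure D3:**
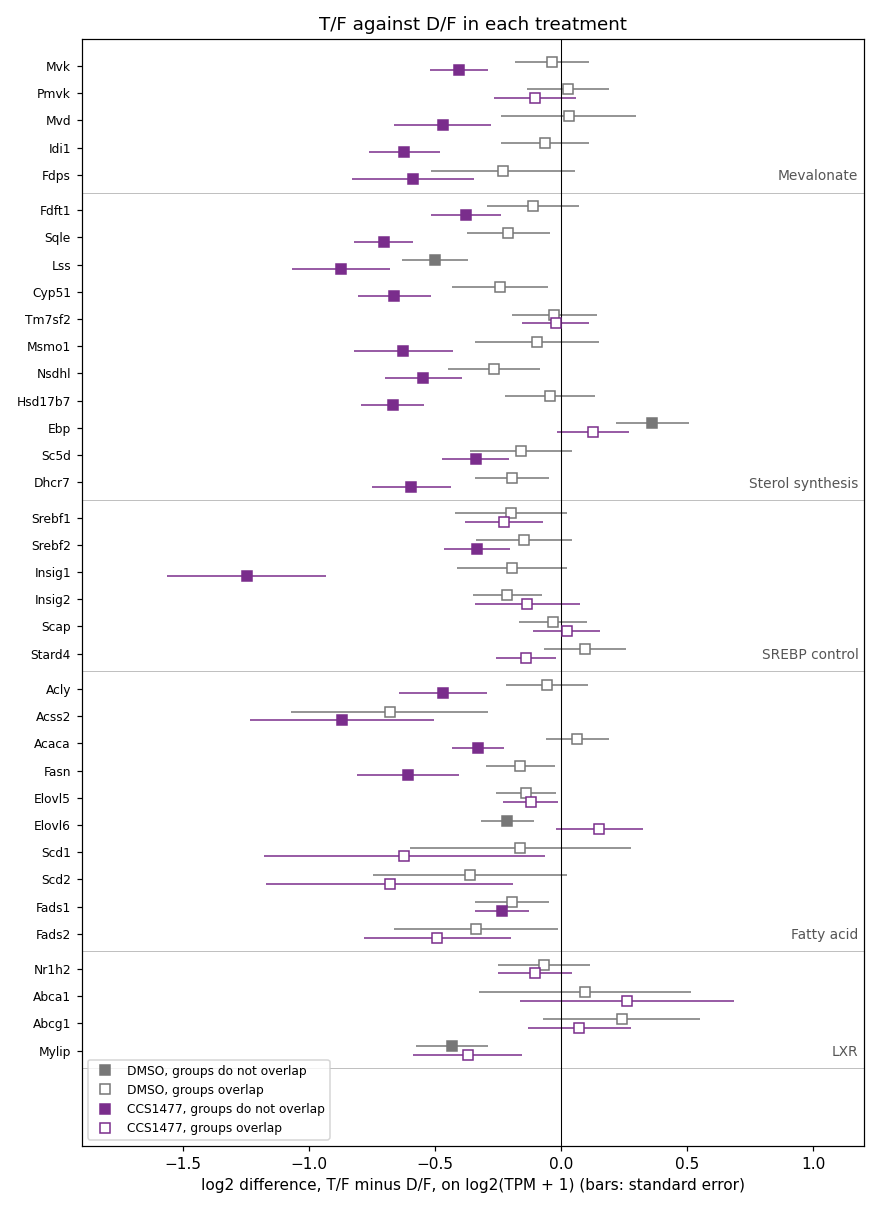
Log2 difference of T/F minus D/F on the log2(TPM + 1) scale (x axis) for each gene (rows, grouped by role) in DMSO (gray) and in CCS1477 (purple), with bars for the SE and filled squares where the 3 T/F and 3 D/F libraries do not overlap. Filled squares left of 0 number 3 in DMSO and 20 in CCS1477, and the longest purple shift is that of Insig1.

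Other genes of these pathways were counted from a list of 35, of which 33 had a row in the table. In D/F cells 4 changed, 2 higher and 2 lower (11.6% of all genes), and in T/F cells 18 changed, 9 higher and 9 lower (43.4%). With the mouse blocked, 14 changed in D/F cells, 9 higher and 5 lower, and 22 in T/F cells, 11 higher and 11 lower, beside 39.3% and 54.1% of all genes. Acat2, the thiolase that starts the pathway by joining acetyl-CoA units, behaved as Mvk did, at 35.3, 34.7 and 27.7 TPM in D/F DMSO and 66.7, 55.99 and 57.3 TPM in D/F CCS1477. It rose by 0.87 ± 0.17 (SE) in D/F cells (limma adjusted p = 0.027) and by 0.48 ± 0.10 (SE) in T/F cells (limma adjusted p = 0.01), a T/F call lost without mouse 1 (adjusted p = 0.064) or mouse 2 (adjusted p = 0.085). Mlxipl, which encodes the glucose-responsive lipogenic factor ChREBP, rose from 1.93, 1.94 and 1.43 TPM to 4.83, 9.66 and 4.16 TPM in D/F cells and by 0.82 ± 0.08 (SE) in T/F cells, with limma adjusted p of 0.039 and 0.0012.

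Fabp5, a fatty acid carrier, fell with log2 differences of -1.18 ± 0.24 (SE) in D/F and -0.997 ± 0.10 (SE) in T/F cells, and Apoe, an LXR target and lipoprotein component, fell with log2 differences of -1.39 ± 0.27 (SE) and -1.25 ± 0.15 (SE). All 4 limma adjusted p values lay between 0.0012 and 0.030. Apoe is abundant in macrophages, and the summed macrophage markers were also lower with CCS1477, but a link between them was not tested. As for every gene, the D/F calls of Acat2, Mlxipl, Fabp5 and Apoe ended without D/F mouse 1 or mouse 3. Within CCS1477, 10 of these 33 genes lay lower in T/F without overlap, and 2 lay higher, where 10.7% and 9.59% of all genes did. Their median log2 difference of T/F minus D/F in CCS1477 was -0.03, as it was over all genes.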

How the data were processed

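The deposited table held TPM values, which the authors made with kallisto (mm10) and AltAnalyze 2.1.3 from stranded, paired-end RNA-seq of 12 libraries. Whether reads were assigned by strand is not given in the sources used here. Every gene in the table reached at least 2.00 TPM in some library. TPM keep no depth, so limma 3.58.1 (R 4.3.3) was run on log2(TPM + 1) in place of a count test, without a trend, on genes whose mean reached 1 TPM in either compared group. Each genotype was fitted alone, over both genotypes with genotype as a term, and in 4 groups for the difference. Ensembl identifiers matched a symbol for 15252 of 15651 genes. The fits were tested on simulated data. Same-numbered libraries came from the same mouse, as the labels state, and their deviations from the group means correlated at 0.354 to 0.669. Between different mice in different groups the highest such correlation was 0.433, above those within T/F mouse 1 (0.383) and T/F mouse 2 (0.354). As the cells were paired by mouse, blocking the mouse was an alternative given where it changed a call. All 37 members, the role groups, the 35 other pathway genes and the markers were chosen with earlier results of these data known, and 2 of the printed promoters after seeing values. Promoter windows came from RefSeq (GRCm38.p6) and gene positions and exon overlaps from GENCODE on the same build. Named among the other pathway genes were those that passed in both genotypes in the same direction, and the single values of the rest are not reported here.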

Additional observations from a re-analysis of the deposited data

Results flagged for a closer look

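For 5 members every D/F mouse was higher with CCS1477 and every T/F mouse was lower. Their log2 differences between the responses, T/F minus D/F, were -0.50 for Mvd, -0.49 for Sqle, -0.62 for Hsd17b7, -0.40 for Dhcr7 and -0.32 for Scd2. The limma test of that difference gave an unadjusted p of 0.03 for Sqle and 0.015 for Hsd17b7, and from 0.089 to 0.65 for the others, and none passed after adjustment over all genes. Log2 ratios in the single mice were 0.37, 0.17 and 0.53 for Hsd17b7 in D/F mice, against -0.34, -0.26 and -0.21 in T/F mice. For Scd2 they were 0.48, 0.05 and 0.03 in D/F mice, against -0.12, -0.12 and -0.17 in T/F mice. Mvd, Sqle, Hsd17b7 and Dhcr7 kept the pattern after median rescaling and after quantile normalization, whereas Scd2 kept it after neither. D/F and T/F cells were treated at different doses, and dose and genotype cannot be told apart.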

How the results depend on the processing

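Counts of members called moved with the setting. The count of 2 in D/F cells became 5 after median rescaling, 4 after quantile normalization, 8 in one fit of the 4 groups, 1 at above 2-fold and 0 to 6 with each mouse left out. Without mouse 1 or mouse 3 no gene of the table passed (lowest limma adjusted p 0.077 and 0.17), and without mouse 2 there were 6. With the mouse as a replicate block, which reflects the pairing of the cells, the count was 11. In T/F cells 16 became 8 in one fit of the 4 groups, 0 at above 2-fold, and 7 to 14 with each mouse left out (7 without mouse 1 or mouse 2). Over both genotypes 11 became 20 with the block, 2 at above 2-fold, and 9 to 13 with each mouse left out. For the difference between the responses, 0 members at an adjusted p stayed 0 with the block, and became 5 at an unadjusted p and 14 at an unadjusted p with the block, rules chosen after seeing the data, as were those on overlap. Members with T/F below D/F in DMSO without overlap went from 3 to between 3 and 14 with each mouse left out, and with CCS1477 from 20 to between 20 and 23, but a left-out library can only keep or raise these counts, and the shares of all genes rose from 7.42% to between 9.36% and 17.6% and from 10.7% to between 13.3% and 19.5%. Among the members the block changed no call other than those given in the text, and ended none. No fitted log2 difference that was followed over the settings changed its direction, but not every member was followed in every comparison. Directions in single mice did change where differences were small. Acaca, lower in every D/F mouse in the main values, was higher in every D/F mouse after quantile normalization. The pseudocount of 0.1 TPM and the filters on low values moved no count by over 1.5 times. The cause was not tested, beyond the smaller number of libraries. Depth could not be weighed, since TPM do not keep it.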
